A study of Bos taurus with 17 samples.

Results

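The SNARE genes described here are 5 syntaxins (STX1A, STX3, STX4, STX7 and STX11), 2 SNAP proteins (SNAP23 and SNAP25) and 3 VAMP proteins (VAMP2, VAMP3 and VAMP8), measured in bovine cumulus cells. They were found by gene symbol or by the protein name and number in the array's probe descriptions, which gave 14 of the 21475 non-control probes for the 10 genes. The cumulus, a sheath of somatic cells around the oocyte, was studied at 3 stages with 1 one-colour Agilent array per sample. At the NC1 stage, compact cumulus came from 6 calves of 3 to 6 months, from follicles of 3 to 6 mm, around prophase I oocytes labelled developmentally incompetent. At the C1 stage, compact cumulus was aspirated in the same way, after slaughter, from 6 adult cows of various ages, around prophase I oocytes labelled developmentally competent. At the C2 stage, expanded cumulus came from 5 living, non-lactating Holstein cows of 3 to 5 years, around metaphase II oocytes. The C2 donors alone had received a progestagen implant, a porcine FSH/LH preparation (400 µg in 7 doses) and prostaglandin F2α, and follicles over 8 mm were aspirated 60 h after the prostaglandin. Oocyte maturation, hormone treatment, follicle size and the way of collection therefore changed together between C1 and C2 and cannot be told apart. Between NC1 and C2 the donors also changed from calves to adult cows. Breed and lactation state were given for the C2 donors alone, so their part cannot be told apart either.

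SNARE proteins drive the fusion of a vesicle with its target membrane. A syntaxin and a SNAP protein on the target membrane and a VAMP protein on the vesicle each contribute helices to 1 bundle that pulls the membranes together. Sec1/Munc18 proteins guide the assembly, synaptotagmins and related proteins couple it to calcium, and NSF with its SNAP adaptors takes the spent complex apart. In the ovary, cumulus cells secrete hyaluronan-binding proteins and signalling factors around the time of ovulation.

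The probes behind the results are shown to make plain which stretch of each transcript was measured. Sequences are those deposited with the array values, 5′ to 3′, and either all 60 or only 30 bases of a probe are given. Which of these bases are coding was not checked against a transcript. Genome positions are left out, since neither the arrays nor the labels state a build.
STX11 (A_73_118337), first 30 bases of the probe of the largest increase: tgctgtgctatccccatctgaatgtatatc
SNAP25 (A_73_111685), first 30 bases: acggcatgtaatattaaattcctcctgtct
VAMP8 (A_73_116126), all 60 bases: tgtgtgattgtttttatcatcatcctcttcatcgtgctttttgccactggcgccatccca
VAMP2 (A_73_100541), the dimmer of the pair, all 60 bases: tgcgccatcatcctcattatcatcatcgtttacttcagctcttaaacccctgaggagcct
VAMP2 (A_73_112666), the brighter of the pair, last 30 bases: cgcatccagattgtgaaaatgtacAATAAA
Capitals mark the letters AATAAA, known as a signal for polyadenylation, with which the brighter VAMP2 probe ends. These letters occur on the printed strand of 14.3% and on either strand of 18.1% of the 15256 probes with a deposited sequence. The longest stretch that both VAMP2 probes share is 5 bases. The brighter VAMP2 probe was assigned to the gene by its description alone (it stems from an expressed sequence tag), whereas the dimmer one carries a RefSeq transcript of VAMP2.

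Values are log2 of the processed signal minus the array's median, so that 0 is the level of the median probe of that array. Different probes bind with different strength, so levels are compared between stages and not between genes. The arrays lay on 6 slides, were scanned on 2 days, and had 66.2 to 82.8% of probes well above background. The array of C2 replicate 2 stood apart, with a distance to its nearest C2 array of 1.12 (root mean square log2 difference over probes) against 0.474 to 0.654 for the other arrays. Of 4 markers of cumulus expansion (HAS2, PTX3, TNFAIP6 and PTGS2), 4 rose at the C2 stage over C1, and FSHR, INHA and AMH, markers of granulosa and cumulus cells, were well above background on all 17 arrays. Of 8 cumulus and granulosa markers, 6 fell at C2 against C1 (FSHR by 3.55 on the log2 scale). Oocyte marker transcripts were detected unequally, as ZP2 and ZAR1 were well above background on 6 of 6 NC1, 4 of 6 C1 and 0 of 5 C2 arrays. BMP15 was so on 5, 3 and 0 and ZP4 on 6, 5 and 1, while GDF9, ZP3 and NLRP5 were so on all 17 arrays. Of the 4 oocyte markers tested, 4 were lower at C2 than at NC1 and 1 lower than at C1. Against C1, 1 of 5 endothelial and 1 of 7 theca and stroma markers were higher, and by limma 0 of 1 red blood cell markers, with 1 at an unadjusted p under 0.05. Over all probes tested, 14.7% were higher and 13.2% lower at C2 than at C1, and 13.1% were lower than at NC1. The stroma marker DCN was counted by its brighter probe, which differed by -0.07 from C1. Its dimmer probe (A_73_104758) rose by 4.08 over C1 (adjusted p = 1.31e-05).

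Of the 10 SNARE genes, 4 differed among the stages in limma's moderated F test at an adjusted p of 0.01, against 28.9% of all probes tested. STX11, SNAP25 and VAMP8 were up-regulated at the C2 stage and VAMP2, in its brighter probe, was down-regulated, while STX1A, STX3, STX4, STX7, SNAP23 and VAMP3 did not pass the test. Against C1, 3 of the 10 genes were higher at C2 (14.7% of all probes) and 1 was lower (13.2%). Against NC1, the same genes passed, 3 higher (15.5%) and 1 lower (13.1%). The 2 comparisons share the C2 arrays. The median C2 minus C1 difference over the 10 genes was 0.40 log2, beside 0.01 over all probes, and the median absolute difference was 0.61 beside 0.54. Against NC1 these were 0.17 beside 0.12, and 0.28 beside 0.54. For 2 genes, STX11 and VAMP2, the 5 C2 arrays lay wholly outside the range of the other 12 arrays, as they did for 15.8% of all probes. In total cumulus RNA, a change of transcript per cell and a change in the share of the cells that carry it cannot be told apart.

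**Figure D1:**
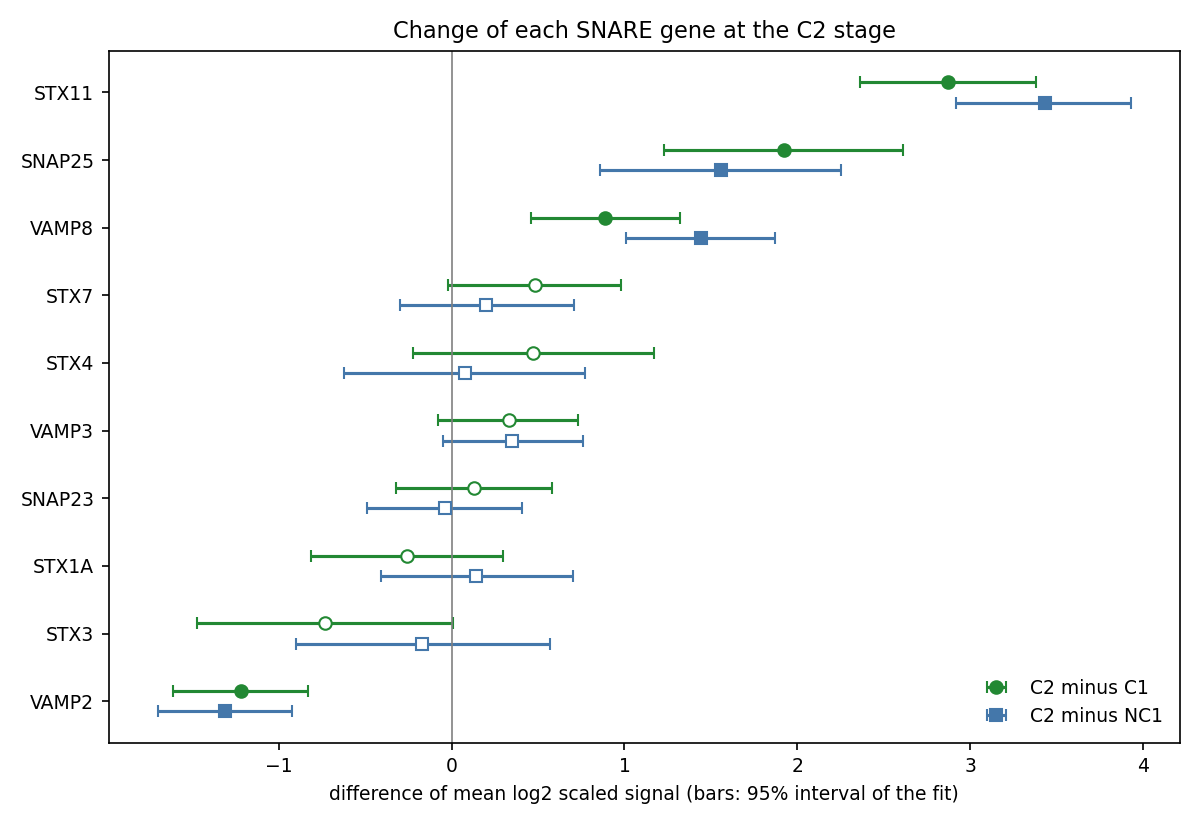
Difference of mean log2 scaled signal (x axis) for each SNARE gene (y axis), C2 minus C1 as circles and C2 minus NC1 as squares, with the 95% interval of the fit; filled symbols passed the adjusted p of 0.01. STX11, SNAP25 and VAMP8 lie to the right of 0 and VAMP2 to the left, and the intervals of the other genes reach 0.

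STX11, a syntaxin without a membrane anchor of its own that is known for granule release by cytotoxic lymphocytes and platelets, showed the largest change of the set. Its log2 scaled signal at C2 was 0.21, -0.57, 0.55, 0.74 and 0.45 in replicates 1 to 5. At C1 it ran from -2.98 to -2.26 (median -2.59, n = 6) and at NC1 from -3.59 to -2.64 (median -3.20, n = 6). Every C2 array was above every array of the other stages, and C2 replicate 2 was the lowest of its stage. The probe was close to background before maturation, being well above it on 3 of 6 arrays at NC1, 6 of 6 at C1 and 5 of 5 at C2. The mean rose by 2.87 log2 over C1 (SE 0.24, adjusted p = 4.39e-08), which is 7.31-fold (95% interval 5.15 to 10.4), and by 3.43 over NC1 (SE 0.24, adjusted p = 5.27e-09). The size of these rises is less certain than their errors, since 3 of 6 NC1 arrays were not well above background and the values depended on the background correction. The exact 2-sided permutation p was 0.00433 in both comparisons, the smallest that 5 against 6 arrays allow. The rise over C1 was 2.73 among arrays scanned on day 1 and 3.14 on day 2, and lay between 1.68 and 3.34 on the 5 slides with both stages. Under another background correction (normexp with an offset of 50), the rise over C1 was 1.57 (adjusted p = 8.71e-06) and that over NC1 1.41 (adjusted p = 2.92e-05).

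**Figure D2:**
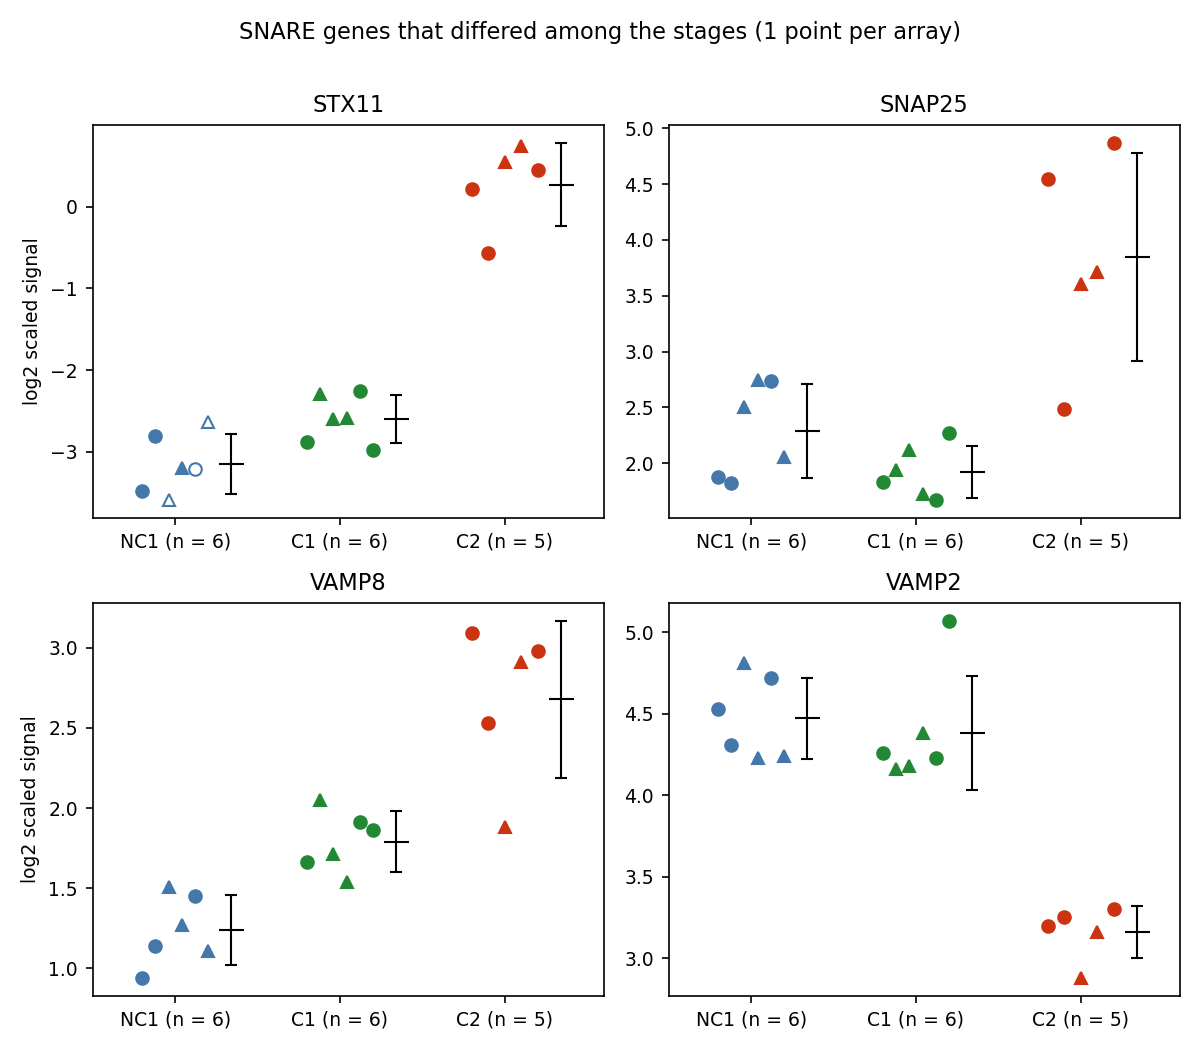
Log2 scaled signal (y axis) of STX11, SNAP25, VAMP8 and VAMP2 (brighter probe) on each array by stage, with the mean and SD in black; circles were scanned on day 1 and triangles on day 2, and open symbols were not well above background. All C2 arrays of STX11 lie above and all of VAMP2 below the other stages, while SNAP25 and VAMP8 each have 1 C2 array within the range of another stage.

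Leukocytes use several of these SNAREs, so their markers were read beside them. Of 12 leukocyte markers, 10 were tested. Against C1, 4 were higher at C2 (CD14, CD53, LAPTM5 and TYROBP), beside 14.7% of all probes. Against NC1, 2 were higher (PTPRC and TYROBP), beside 15.5%. The F test of LAPTM5 did not pass (adjusted p = 0.0179). The mean log2 level over the 12 markers lay between -0.86 and 0.18 at NC1, between -1.49 and -0.66 at C1 and between -1.55 and 1.55 at C2. CD3E, a T cell marker, was well above background on 0 of 6 NC1, 0 of 6 C1 and 4 of 5 C2 arrays, and MPO, a neutrophil marker, on 0, 4 and 2. In C2 replicate 2, the array that stood apart, the mean marker level was -1.55, below every C1 array. STX11 there was -0.57, the lowest of its stage and above every C1 and NC1 array. The part of leukocytes and other cell types in the rise of STX11 was not tested. The C2 arrays ordered by the leukocyte mean were replicates 5 (1.55), 1 (1.07), 4 (0.44), 3 (0.39) and 2 (-1.55), and the theca and stroma mean was also highest in replicates 1 (4.33) and 5 (4.04), against 2.53 to 2.68 in the other 3. Without C2 replicate 2, 7 of the leukocyte markers were higher at C2 than at C1 and 4 higher than at NC1, and STX11 rose by 3.08 over C1 (adjusted p = 9.43e-09). STXBP2 and UNC13D, which act with STX11 in cytotoxic cells, were looked up after the values were seen. STXBP2 differed by 0.45 from C1 (adjusted p = 0.22) and was 2.14-fold higher than at NC1 (adjusted p = 0.00444), although its F test did not pass (adjusted p = 0.012), and UNC13D differed by -0.02 from C1 (adjusted p = 0.971).

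SNAP25, the target-membrane SNARE of neurons and endocrine cells, was the second gene that rose. Its values at C2 were 4.55, 2.49, 3.61, 3.71 and 4.87, against 1.67 to 2.27 at C1 (median 1.88) and 1.82 to 2.75 at NC1 (median 2.28). All C2 arrays were above those of C1, and C2 replicate 2 lay within the NC1 range. The mean rose by 1.92 over C1 (SE 0.33, adjusted p = 0.000139, 3.79-fold with an interval of 2.35 to 6.12) and by 1.56 over NC1 (SE 0.33, adjusted p = 0.00101). The exact permutation p was 0.00433 and 0.0173 (5 against 6 arrays). SNAP25 had the widest spread among the C2 arrays of the genes that passed (SD 0.93), and without C2 replicate 2 it rose by 2.26 over C1 and by 1.89 over NC1. The C2 arrays had the same order by SNAP25 as by the mean of the leukocyte markers, highest in replicates 5 and 1 and lowest in replicate 2. Replicates 1 and 5 also had the highest theca and stroma means and the lowest cumulus and granulosa means (3.73 and 3.55, against 4.77 to 5.14 in the other 3). The part of other cell types in the rise of SNAP25 was not tested. Its ubiquitous relative SNAP23 did not pass the test. The brighter SNAP23 probe (A_73_119529) had means of 4.24 ± 0.31 at NC1 (SD, n = 6), 4.07 ± 0.39 at C1 (n = 6) and 4.20 ± 0.30 at C2 (n = 5), a C2 minus C1 difference of 0.13 (interval -0.32 to 0.58, adjusted p = 0.665). The dimmer SNAP23 probe (A_73_114450) differed by 0.43 (adjusted p = 0.214).

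VAMP8, a vesicle SNARE of secretory granules and late endosomes, was the third gene that rose. At C2 it read 3.09, 2.53, 1.88, 2.91 and 2.98, against 1.54 to 2.05 at C1 (median 1.78) and 0.94 to 1.51 at NC1 (median 1.20). Only C2 replicate 3 fell within the C1 range, and all C2 arrays were above NC1. The rise was 0.89 over C1 (SE 0.20, adjusted p = 0.00192, 1.86-fold with an interval of 1.38 to 2.50) and 1.44 over NC1 (SE 0.20, adjusted p = 1.99e-05, 2.72-fold with an interval of 2.02 to 3.66). The exact permutation p was 0.0130 and 0.00433 (5 against 6 arrays). Within scan days the rise over C1 was 1.06 and 0.63.

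VAMP2, the synaptobrevin of regulated exocytosis, went the other way in its brighter probe. This probe (A_73_112666) read 3.20, 3.25, 2.88, 3.16 and 3.30 at C2, against 4.16 to 5.07 at C1 (median 4.25) and 4.23 to 4.81 at NC1 (median 4.42). All C2 arrays were below all others. The difference was -1.22 from C1 (SE 0.19, adjusted p = 4.17e-05), 2.33-fold lower with an interval of 1.78 to 3.05, and -1.31 from NC1 (SE 0.19, adjusted p = 1.93e-05). It was -1.27 on scan day 1 and -1.22 on day 2 against C1. The dimmer probe with the RefSeq transcript (A_73_100541) read -0.04, 0.04, -1.02, -0.36 and -0.54 at C2, against -0.05 to 0.20 at C1. It differed by -0.47 from C1 (SE 0.19, adjusted p = 0.0494) and by -0.23 from NC1 (adjusted p = 0.355), and did not pass. The fall of VAMP2 thus rests on 1 of its 2 probes. VAMP3, the cellubrevin of constitutive and recycling traffic, had means of 6.34 ± 0.23, 6.36 ± 0.19 and 6.69 ± 0.42 at NC1, C1 and C2 (SD). Its C2 minus C1 difference was 0.33 (interval -0.08 to 0.73, adjusted p = 0.187), with 0.06 on scan day 1 and 0.74 on day 2.

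**Figure D3:**
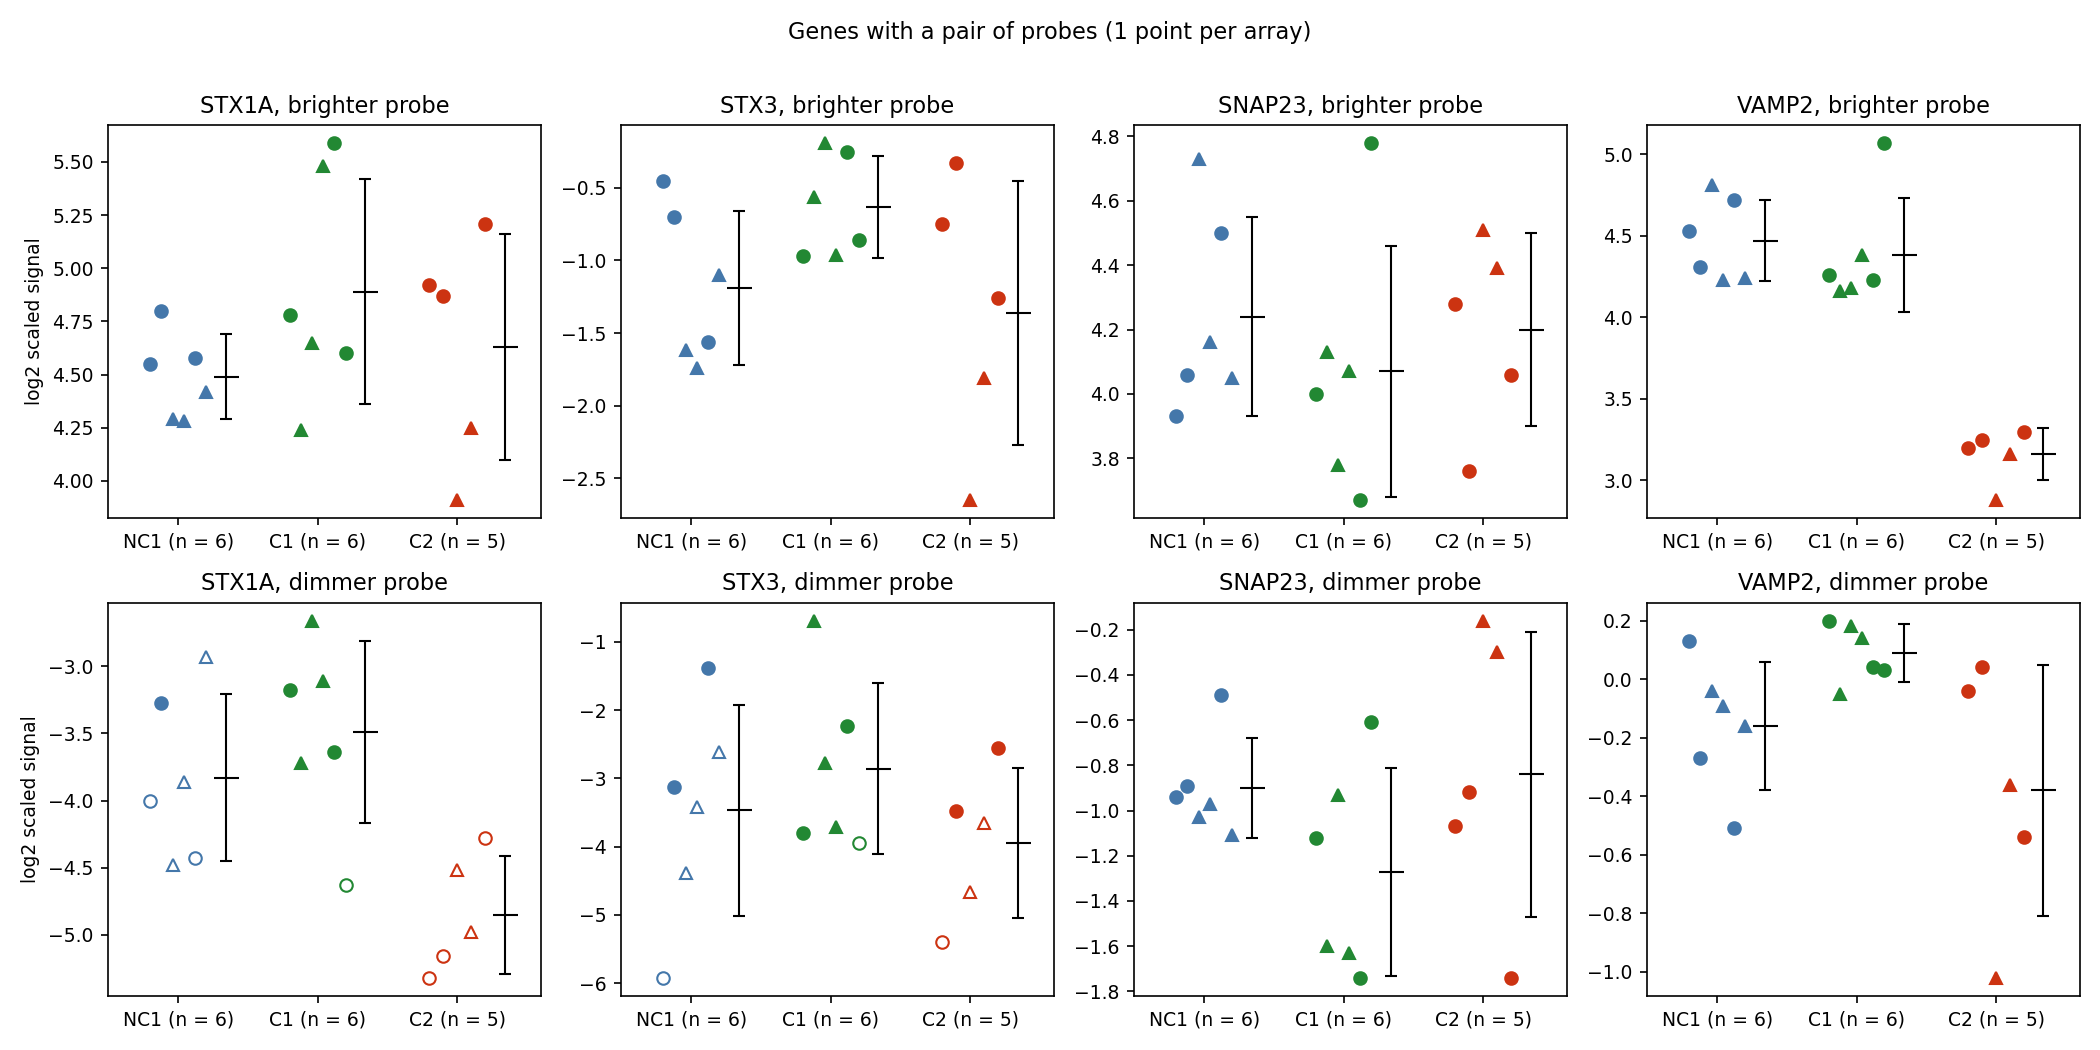
Log2 scaled signal (y axis) by stage of the genes with a pair of probes, brighter probe above and dimmer probe below, with the mean and SD in black; circles were scanned on day 1 and triangles on day 2, and open symbols were not well above background. The brighter VAMP2 probe separates C2 from the other stages, the dimmer one does not, and the dimmer STX1A probe is above background on 0 of 5 C2 arrays.

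The other 4 syntaxins did not pass the test by the probes in the fit. STX1A, the plasma-membrane syntaxin of neurons, had means of 4.49 ± 0.20, 4.89 ± 0.53 and 4.63 ± 0.53 at NC1, C1 and C2 in its brighter probe (A_73_114154), and all 3 ranges overlapped. The C2 minus C1 difference of -0.26 had an interval of -0.81 to 0.30. Its other probe (A_73_108182) was too dim for the fit, being well above background on 1 of 6 NC1, 5 of 6 C1 and 0 of 5 C2 arrays. C1 was 2.57-fold brighter than C2 on that probe (interval 1.55 to 4.25), and C2 was lower on 5 of 5 slides. The size of this difference is uncertain, since the probe was not well above background on any C2 array. In the fit without a filter on dim probes, the C2 minus C1 contrast of this probe had an adjusted p of 0.00533 and its F test one of 0.0124. STX3, a syntaxin of apical membranes and granules, had means of -1.19 ± 0.53, -0.63 ± 0.35 and -1.36 ± 0.91. Its C2 minus C1 difference was -0.73 (interval -1.47 to 0.01, adjusted p = 0.106), with -0.09 on scan day 1 and -1.66 on day 2. The last bases of this STX3 probe (A_73_119070) hold the recognition letters of the restriction enzyme NotI, found in 10 of 15256 probes (0.0655%), and their part in its signal was not tested. The other STX3 probe (A_73_117354) was well above background on 2 of 6, 5 of 6 and 2 of 5 arrays and was not in the fit.

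STX4, the plasma-membrane syntaxin of many non-neuronal cells, had means of 4.75 ± 0.68, 4.35 ± 0.30 and 4.82 ± 0.69 at NC1, C1 and C2. Its C2 minus C1 difference was 0.47 (interval -0.22 to 1.17, adjusted p = 0.273), and C2 replicate 1, at 5.96, was the highest array. STX7, which acts in fusion of late endosomes, had means of 5.27 ± 0.31, 4.99 ± 0.35 and 5.47 ± 0.51. Its difference from C1 was 0.48 (interval -0.02 to 0.98, adjusted p = 0.12). The interval of STX4 reaches 2.25-fold and that of STX7 1.98-fold, so that rises up to these sizes lie within the error of these arrays.

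**Figure D4:**
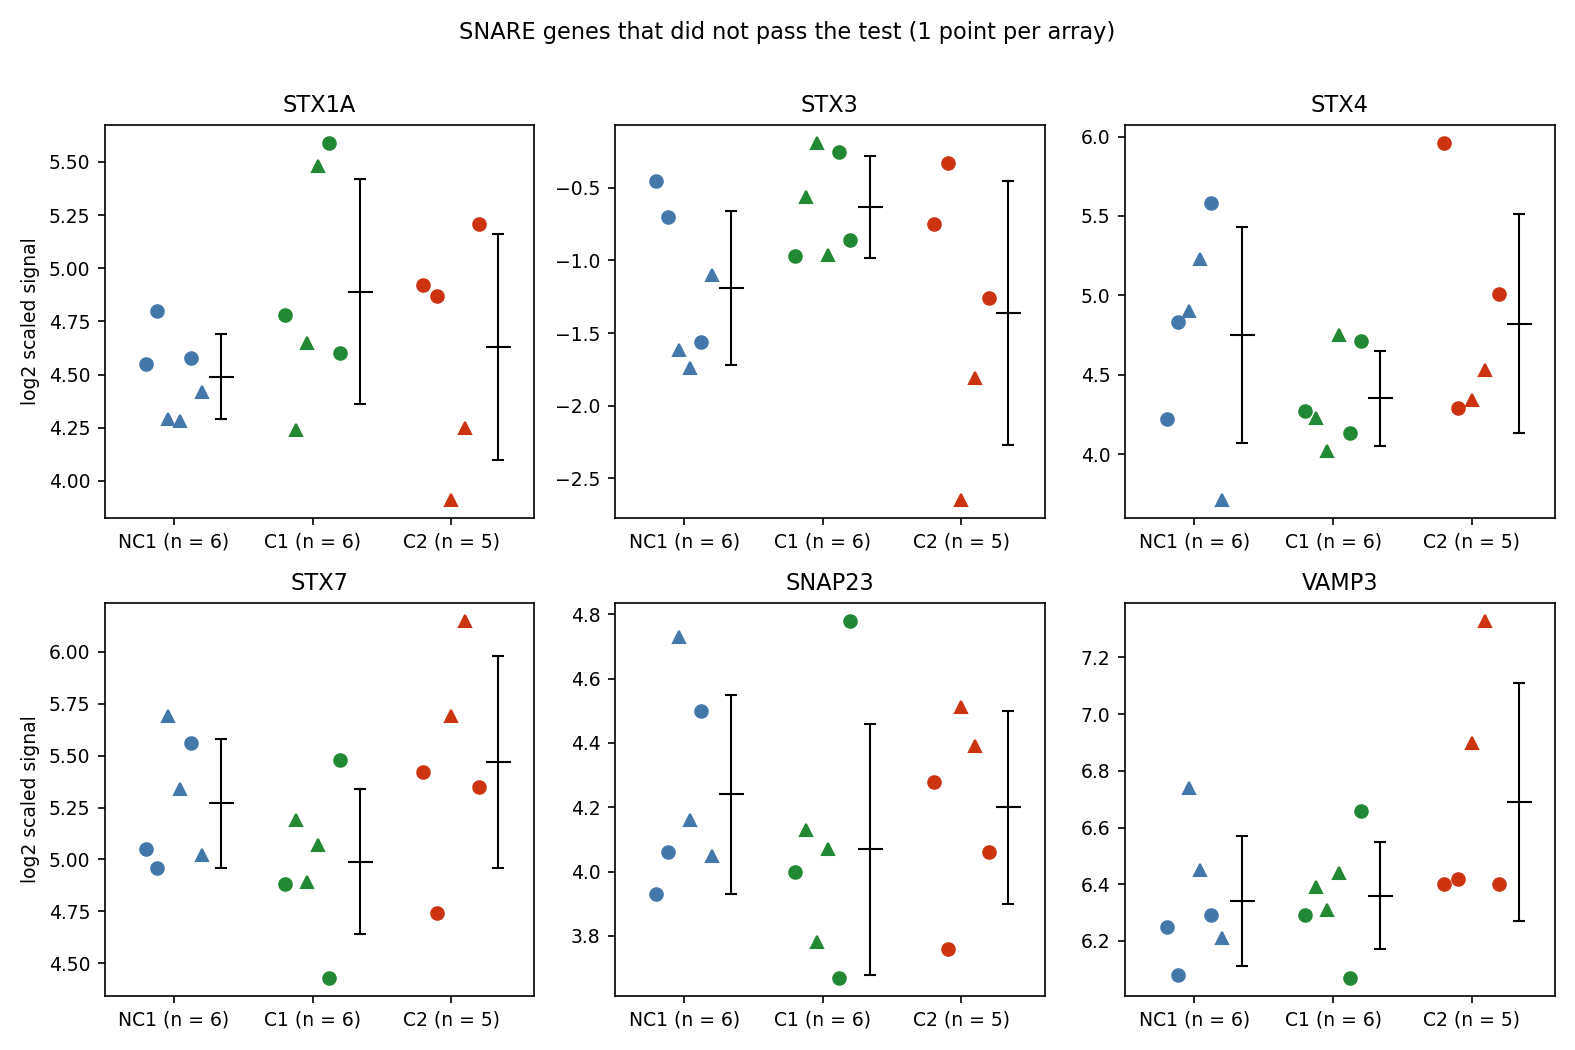
Log2 scaled signal (y axis) by stage of the 6 SNARE genes that did not pass the test, with the mean and SD in black; circles were scanned on day 1 and triangles on day 2. The ranges of the C2 arrays overlap those of C1 and NC1 in every panel.

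Between calves and adult cows, 0 of the 10 genes differed by limma's contrast of C1 against NC1 at an adjusted p of 0.01, where 0.0655% of all probes did. The differences ran from -0.39 to 0.56 log2, and 2 genes, STX11 and VAMP8, had an unadjusted p under 0.05. For VAMP8 all C1 arrays were above all NC1 arrays, with a difference of 0.55 (SE 0.19) and an exact permutation p of 0.00216, the smallest that 6 against 6 arrays allow. Adjusted over all probes its p was 0.263. STX11 differed by 0.56 (SE 0.23, adjusted p = 0.365), a direction that turned under normexp (-0.15), with 3 of 6 NC1 arrays not well above background. VAMP8 was thus lowest at NC1 and highest at C2, with C1 between, and the first of these steps did not pass over all probes.

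The other genes of vesicle fusion were read from 7 lists with 99 genes, of which 91 had a probe and 78 were tested. Of these 78, 26 differed among the stages (28.9% of all probes). Against C1, 13 were higher (14.7% of all probes) and 12 lower (13.2%) at C2. Against NC1, 18 were higher (15.5%) and 9 lower (13.1%). Without C2 replicate 2 these counts of genes were 14, 13, 17 and 7. The same shares of all probes are those to set beside the counts of each list below. By limma, 0 of the 78 differed between C1 and NC1, with 11 at an unadjusted p under 0.05.

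The calcium sensors held the largest changes, with 5 of 17 synaptotagmins and related proteins higher and 4 lower at C2 than at C1. DOC2B, a soluble calcium sensor of exocytosis, rose by 5.37 over C1 (SE 0.48, adjusted p = 8.96e-08), from a mean of -3.35 ± 1.03 at C1 to 2.02 ± 0.79 at C2. Its probe was well above background on 2 of 6 NC1, 5 of 6 C1 and 5 of 5 C2 arrays. SYT1, the synaptic calcium sensor that binds the complex of syntaxin and SNAP25, rose by 4.81 (SE 0.42, adjusted p = 7.71e-08), with C2 arrays between 5.28 and 6.46 and C1 arrays between -0.51 and 2.11. SYT13 went down from -0.47 ± 0.71 at C1 to -5.73 ± 0.50 at C2 (adjusted p = 8.08e-09). Its probe was not well above background on any C2 array, so that the size of the fall is uncertain. SYT5 fell by 1.72 (SE 0.19, adjusted p = 1.17e-06).

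Among the proteins that handle syntaxins, 1 of 11 was higher and 2 were lower. STXBP5L (tomosyn-2), an inhibitor of SNARE assembly, fell from a mean of -2.07 ± 0.41 at C1 to -5.33 ± 0.79 at C2 (adjusted p = 8.17e-07), where its probe was well above background on 1 of 5 arrays, so that the size of the fall is uncertain. NSF, the ATPase that takes SNARE complexes apart, was the only one of the 3 tested disassembly genes to rise, by 0.93 (SE 0.18, adjusted p = 0.00038). Of 12 priming and docking genes, 4 were lower and 0 higher at C2 than at C1, and at an unadjusted p under 0.05 the limma counts were also 4 and 0 (3 lower and 0 higher passed without C2 replicate 2). Against NC1, 3 were lower and 0 higher, with 3 and 3 at an unadjusted p under 0.05, and 1 lower and 1 higher passed without C2 replicate 2. A gene present at C2 alone could not enter the fit or these counts. RAB3C, which was not in the fit, was well above background on 0 of 6 NC1, 1 of 6 C1 and 4 of 5 C2 arrays. Its mean was 2.6 log2 higher at C2 than at C1 and 1.2 higher than at NC1. CADPS2, a priming factor of dense-core vesicles, fell by 1.46 (SE 0.38, adjusted p = 0.00454).

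Of 18 other SNAP, VAMP and SNARE genes, 3 were higher and 2 lower at C2 than at C1 (3 and 1 without C2 replicate 2). VTI1A, a SNARE of the Golgi and endosomes, rose by 1.07 (SE 0.22, adjusted p = 0.00066), and VAMP5, known from muscle, fell by 1.39 (SE 0.24, adjusted p = 0.00014). Of 9 other syntaxins, STX12, a SNARE of recycling endosomes, was the 1 higher gene (0.84, adjusted p = 0.00641), and 0 were lower, with 1 lower at an unadjusted p under 0.05 by limma (1 passed without C2 replicate 2). Of the 8 exocyst subunits tested, which tether vesicles before SNAREs engage, 2 were higher than at C1. These were EXOC5 (1.01, SE 0.15, adjusted p = 3.42e-05) and EXOC8 (0.99, SE 0.26, adjusted p = 0.00467). By limma 0 exocyst subunits were lower, with 2 at an unadjusted p under 0.05 (1 passed without C2 replicate 2). EXOC7 was represented by a bright probe that differed by -0.04, while its dimmer probe (A_73_116776) rose by 1.64 (adjusted p = 1.47e-05).

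**Figure D5:**
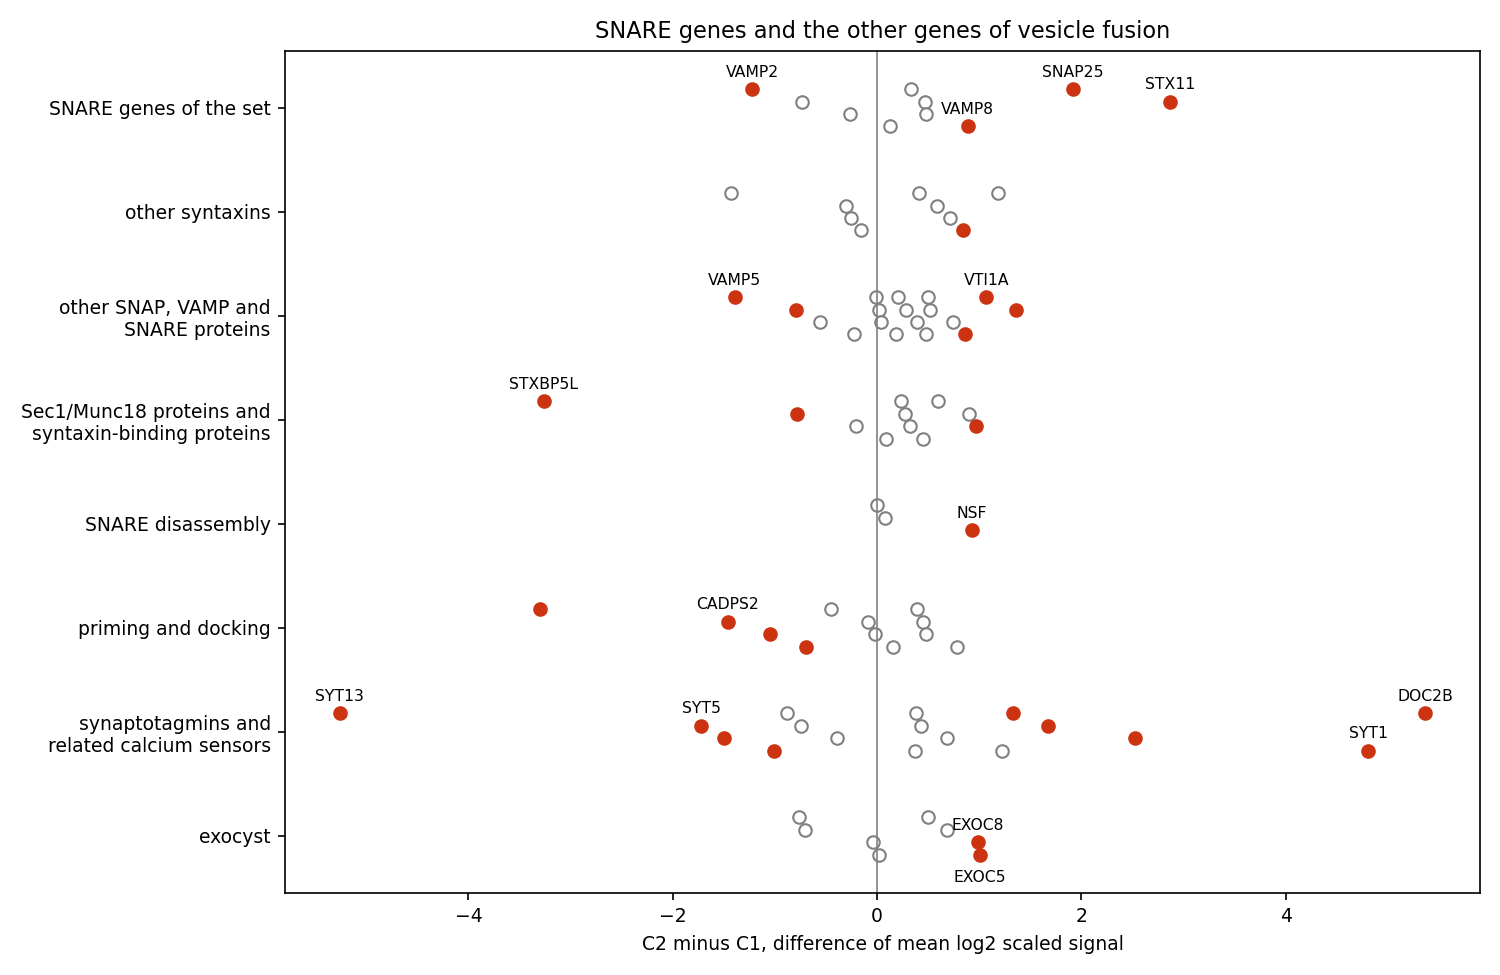
C2 minus C1 difference of mean log2 scaled signal (x axis), 1 point per gene. The y axis gives the 10 SNARE genes and the genes tested in each list of vesicle fusion. Filled points passed the adjusted p of 0.01. Labels mark STX11, SNAP25, VAMP8, VAMP2 and some of the list genes described by name. DOC2B and SYT1 lie at 5.37 and 4.81 and SYT13 at -5.26, beyond STX11 at 2.87.

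The genes whose pattern over the 17 arrays was most like that of each changed member were taken from 12511 named probes by Pearson's correlation, as a description in which the stage differences weigh most. For STX11 they were KIAA1727 (r = 0.971), IRAK3 (0.97) and RGN (0.969), and IRAK3, a brake on interleukin-1 receptor signalling, rose by 3.16 over C1 and RGN, a calcium-binding protein, by 5.36. For SNAP25 they were MARCHF7 (r = 0.97), NIN (0.967) and KATNBL1 (0.966). For VAMP2 they included ERLIN2 (r = 0.974) and CA11 (0.964), which differed from C1 by -1.62 and -2.20.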

How the data were processed

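Total RNA of 17 cumulus samples was hybridised to 1-colour Agilent arrays and read with Agilent Feature Extraction (10.5.1.1), per the labels. The deposited scanner files give 1 intensity per spot, and the authors also deposited a table of median-scaled log2 values of 15256 probes. Genome builds were not given in the sources used here. From the intensities, log2 of the processed signal (mean of a probe's spots without outlier flags) minus the array median over non-control probes was computed. After a per-array offset, 99% of the authors' deposited log2 values lay within 2.03e-06 of it. The fit took probes called present in 80% or more of a stage's arrays for any 2 stages, which is the filter of the deposited table. A probe present at 1 stage alone was therefore not tested. This filter was taken because the study's own list of differing probes holds STX11, which it keeps. The place of STX11 among the tested genes was thus not set without regard to its result. The methods' stricter filter (each stage) removes STX11.

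The stages were compared in 1 fit by limma (3.58.1; R 4.3.3) with Benjamini-Hochberg adjustment over all 15256 probes at 0.01. Adjusted p-values in the text are from this fit unless another setting is named. The procedure was tested on simulated data. Exact 2-sided permutation tests used scipy. The brightest probe in the fit stood for a gene. Of 21475 probes, 3524 were named by RefSeq accession and 9987 by gene ID, with the RefSeq table of assembly ARS-UCD2.0. From each list were named, at most, the 5 genes with the largest difference from C1 that passed the F test and whose C2 arrays did not overlap the others. STX12, STXBP2, UNC13D, RAB3C and EXOC7 fall outside this rule and were named after their values were seen. For STX11 and each other changed gene with a difference from C1 over 1, the 3 most correlated named genes are given. Some genes that these rules name are not reported here. The genes and lists were chosen with earlier results of these data known. The alternatives were scaling, background correction, filter, spot and probe averaging, the deposited table, array weights, blocks, the methods' analysis of variance and leaving out each array. The number of arrays limits the precision. Labels name separate samples and the study's methods separate animals.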

Additional observations from a re-analysis of the deposited data

Results flagged for a closer look

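Among 42 groups of arrays (14 probes at 3 stages), 2 held an array far from the others of its stage, where chance gives about 1 in 20. The brighter VAMP2 probe read 5.07 in C1 replicate 6 against 4.16 to 4.38 in the other 5 C1 arrays, and without that array the C2 minus C1 difference of VAMP2 was -1.08. The dimmer SNAP23 probe (A_73_114450) read -0.49 in NC1 replicate 5 against -1.11 to -0.89 in the others.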

How the results depend on the processing

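The 4 genes that passed the F test (STX11, SNAP25, VAMP2 and VAMP8) were the same in every alternative run but 1. Under the methods' filter of presence in each stage STX11 was not tested, and the counts were 3 in the F test and 2 higher genes against C1 and NC1. STX11 rose under its 23 other alternatives by 1.57 to 3.08 over C1, SNAP25 under 24 by 1.67 to 2.30 and VAMP8 by 0.76 to 1.09, while VAMP2 differed by -1.35 to -0.85, all past the threshold (highest adjusted p = 0.00996, for VAMP8 with the replicate block). Replicate numbers are shared by the stages, and 4 of 16 pairs with the same number had correlated deviations over 0.1 (-0.297 to 0.244). Pairs on the same slide looked alike, with 5 of 16 over 0.1 (-0.272 to 0.36). This check therefore cannot decide whether the numbers pair the samples, and the main fit treated them as unpaired. With the replicate block the F test called 4 genes, with 3 higher and 1 lower at C2 than at C1 and than at NC1, and 0 between C1 and NC1.

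Scaling to the 75th percentile moved the median of all probes from 0.01 to -0.12 for C2 minus C1 and from 0.12 to -0.03 for C2 minus NC1. Some differences changed sign under other settings, and none of these was past the threshold. Most were near 0, but STX11 (C1 minus NC1, 0.56) and STX7 (-0.28) were not. For C2 minus NC1 these were STX1A (-0.003 with the 75th percentile, -0.05 with quantile normalization), STX4 (-0.07, -0.11 and, with the slide block, -0.04), STX7 (-0.02 with quantile normalization) and SNAP23 (0.16 with normexp, 0.06 with array weights, 0.01 with the replicate block and 0.01 as the mean of its probes). Leaving out single arrays gave -0.20 to 0.25 for STX4, -0.42 to 0.16 for STX3 and -0.12 to 0.07 for SNAP23. For C2 minus C1, SNAP23 was -0.04 with quantile normalization. For C1 minus NC1, normexp gave 0.06 for STX7, -0.15 for STX11, 0.14 for SNAP23 and 0.20 for VAMP2, the mean of its probes gave 0.08 for VAMP2, and quantile normalization gave -0.03 for VAMP3, with -0.04 to 0.10 when single arrays were left out. The cause of these changes was not tested. The array weights stopped before full convergence. The dim signal of STX11 at NC1 and C1 limits how well its fold is known.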
